A study of Homo sapiens with 16 samples.

Results

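The genes described here carry names that begin with EIF1 to EIF6 in the deposited expression table, without the EIF2AK kinases. They are 55 of 31329 named genes on the array. Most encode eukaryotic translation initiation factors, and 4 (EIF2C1 to EIF2C4) are older names of the Argonaute genes AGO1 to AGO4, which act in small RNA silencing and are not initiation factors. EIF3IP1 is a pseudogene related to EIF3I. A detection p-value below 0.05 on at least 2 arrays was required for testing. Of the 55 genes, 52 passed, and EIF1AY, EIF2C4 and EIF4EBP3 did not. Among those 52, 41 were detected on all 16 arrays and 11 on 2 to 15 arrays.

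Gene expression was measured on Illumina arrays in MDA-MB-231, an established human breast cancer cell line of mesenchymal character. The cells received 2.5 µM entinostat (an inhibitor of class I histone deacetylases), 1 µM all-trans retinoic acid (ATRA, a ligand of retinoic acid receptors) or 0.2 µM doxorubicin (an anthracycline that poisons topoisomerase II). Each drug was given alone, in every pair and as a combination of all 3 for 48 h, with DMSO as the vehicle control, which makes 8 groups of 2 arrays. The labels give each replicate a number but do not state whether the replicates were separate cultures. The p-values therefore reflect the spread between these arrays, possibly only a technical one.

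Initiation brings the small ribosomal subunit, carrying initiator methionyl-tRNA, to the start codon of an mRNA. eIF2 delivers that tRNA as a complex with GTP, and eIF2B recharges eIF2 with GTP afterwards. The multi-subunit eIF3 holds the small subunit and recruits the mRNA. The cap-binding complex eIF4F joins the cap binder eIF4E, the scaffold eIF4G and the RNA helicase eIF4A, which unwinds structure ahead of scanning with the help of eIF4B and eIF4H. eIF1, eIF1A and eIF5 govern start codon choice, and eIF5B joins the large subunit. Growth signalling through mTORC1 and stress signalling to eIF2α are the best-known controls of these steps in cancer cells. They act largely through protein phosphorylation, which arrays do not measure.

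The helicase genes and the gene of the helicase cofactor eIF4B carry the results below, so the 250 bases before each of their starts are shown (RefSeq, GRCh38.p14, read on the gene's strand). Capitals mark CACGTG (the E-box, its own reverse complement), CCAAT and GGGCGG on either strand, so that ATTGG and CCGCCC are also in capitals. CACGTG was chosen as a motif together with the lists, CCAAT and GGGCGG after the data were seen, and no match of one motif overlaps another in these stretches. EIF4A1 was read from chr17:7572575-7572824 on the plus strand, EIF4A2 from chr3:186783327-186783576 on the plus strand, EIF4A3 from chr17:80147129-80147378 on the minus strand and EIF4B from chr12:53006206-53006455 on the plus strand.
EIF4A1: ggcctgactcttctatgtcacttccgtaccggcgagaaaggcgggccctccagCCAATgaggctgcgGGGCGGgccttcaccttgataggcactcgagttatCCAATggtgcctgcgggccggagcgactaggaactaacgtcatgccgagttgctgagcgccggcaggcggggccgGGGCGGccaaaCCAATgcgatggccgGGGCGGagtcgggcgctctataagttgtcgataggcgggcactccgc
EIF4A2: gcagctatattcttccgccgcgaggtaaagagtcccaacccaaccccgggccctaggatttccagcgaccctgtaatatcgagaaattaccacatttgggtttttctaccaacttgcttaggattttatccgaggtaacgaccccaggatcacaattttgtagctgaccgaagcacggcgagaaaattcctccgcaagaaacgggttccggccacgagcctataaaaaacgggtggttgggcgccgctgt
EIF4A3: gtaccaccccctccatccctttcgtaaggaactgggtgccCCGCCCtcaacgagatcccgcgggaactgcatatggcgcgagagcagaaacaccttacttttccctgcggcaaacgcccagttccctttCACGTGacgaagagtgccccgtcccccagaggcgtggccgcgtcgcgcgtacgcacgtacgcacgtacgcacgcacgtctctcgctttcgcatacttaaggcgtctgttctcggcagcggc
EIF4B: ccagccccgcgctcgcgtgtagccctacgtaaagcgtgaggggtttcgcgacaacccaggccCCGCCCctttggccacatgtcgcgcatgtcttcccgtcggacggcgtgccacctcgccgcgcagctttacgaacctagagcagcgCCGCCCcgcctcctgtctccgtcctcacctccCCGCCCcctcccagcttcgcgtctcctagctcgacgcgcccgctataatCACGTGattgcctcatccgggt
The EIF4A1 stretch held 3 CCAAT and 3 GGGCGG matches, while that of its paralogue EIF4A2 held 0 of both. CACGTG began 121 bases before the start of EIF4A3 and 22 bases before that of EIF4B, genes that moved in opposite directions. Promoters were matched for 45 members among 35116 genes in the table. CACGTG was in 11 of the 45 (24.4%), against 6.34% of all promoters of this length. GGGCGG was in 30 members (66.7%), against 42.6%, and CCAAT in 16 (35.6%), against 32%. This background is every promoter in the table and was not matched to the members by gene type. Among members lower with doxorubicin CACGTG was in 5 of 15, among those higher in 1 of 6, and among those not called in 4 of 21. A match is a description of letters, not of a bound site.

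On each array 11402 to 12748 named genes (36.4% to 40.7%) were detected, and 44 to 49 of the 55 members. VIM, CD44, CAV1, AXL, LGALS1 and S100A6, which mark this line, were detected on all 16 arrays. The hormone receptor genes ESR1 and PGR were detected on 0, and so were PTPRC, CD3E and DCN of blood cells and fibroblasts. EPCAM was detected on 16 arrays, PECAM1 on 13, FOXA1 on 9, COL1A1 on 6, VWF on 4, COL3A1 on 3, GATA3 and HBB on 2 and CDH1 on 1. Their part in the results was not tested. The arrays of doxorubicin alone stood apart from each other. Counts for doxorubicin alone and for entinostat added to doxorubicin are given without each of them. For the doxorubicin average, the range over all left-out arrays is given. Signals below are the deposited background-subtracted intensities. Changes are differences of normalized log2 values, with a standard error (SE), from a limma fit of all 16 arrays, and genes count as called where p, adjusted by Benjamini-Hochberg over 17126 genes, was below 0.05. A background correction fitted from the detection p-values was run as an alternative and is quoted beside the averages of called members that it moved by more than 1.5 times, except for EIF4E. In bulk RNA, fewer cells of a kind and less RNA per cell cannot be told apart, and the normalization makes each change relative to the other genes.

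Doxorubicin moved the initiation factor genes most. Averaged over the presence and absence of entinostat and ATRA, 8 arrays with against 8 without doxorubicin, 7 of 52 members rose and 20 fell. That is 51.9% of the members, with 41.1% called among all genes, 19.8% higher and 21.3% lower. The falls include EIF4E and the rises EIF4E3, both near background. Since most members are well detected, the closer background is the genes detected on all 16 arrays, of which 58.2% were called. Of the 41 members detected on all arrays, 23 (56.1%) were called, 6 higher and 17 lower, a share near that background. The members' median difference was -0.14 on the log2 scale, against 0 for all genes. Neither a median nor a split by direction was computed for the genes detected on all 16 arrays. The signals of 10 members (19.2%) did not overlap between the 8 arrays with and the 8 without the drug, against 11.6% of all genes tested. Among genes detected on all 16 arrays it was 8 of 41 members (19.5%) against 17.9%, again near the background. Of the 10, EIF4A3 and EIF4ENIF1 were higher and EIF1AX, EIF3A, EIF3E, EIF3M, EIF4A2, EIF4B, EIF4G1 and EIF4G3 were lower.

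**Figure D1:**
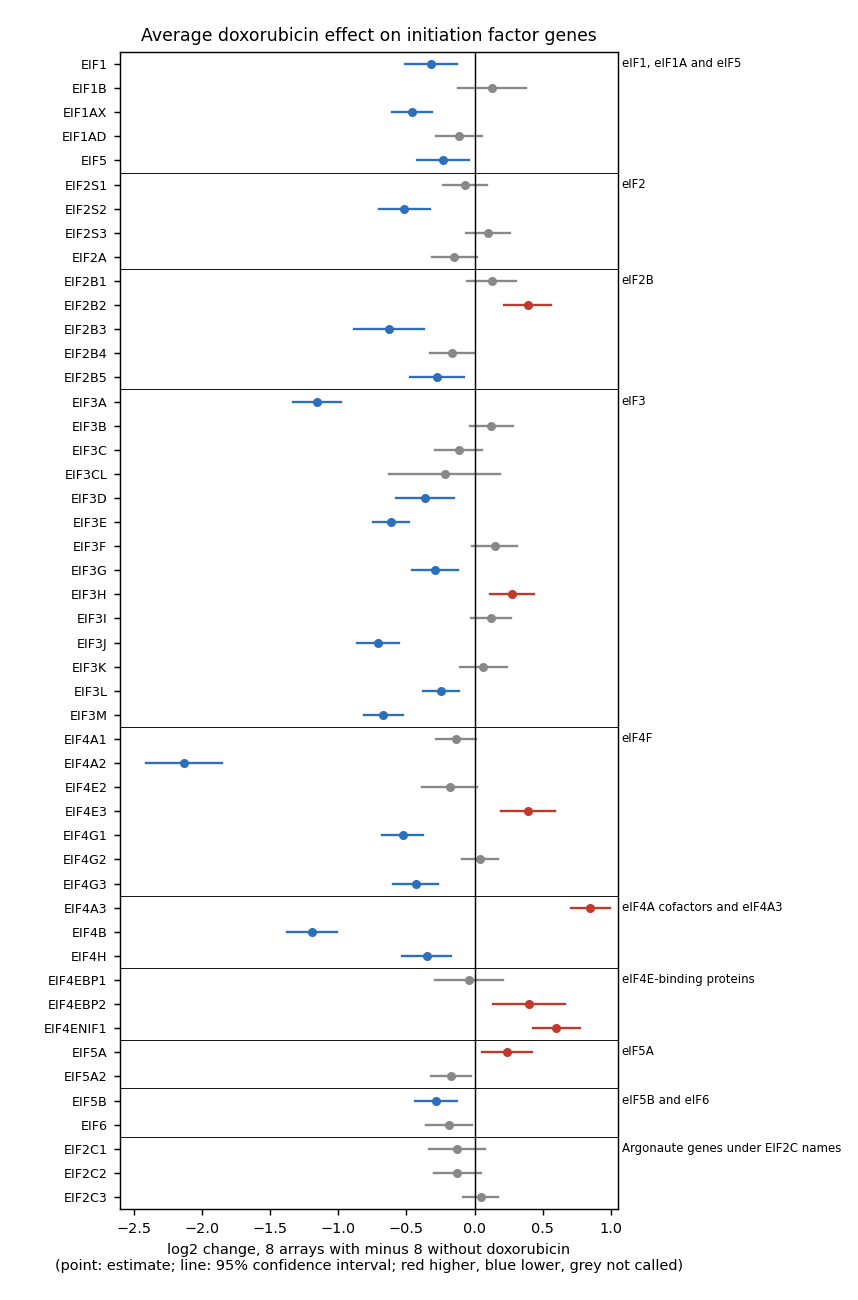
Average doxorubicin effect on each initiation factor gene, as the log2 change between 8 arrays with and 8 without the drug (horizontal axis), grouped by complex. Points are estimates and lines 95% confidence intervals, with called genes in red (higher) or blue (lower). EIF4A2 lies farthest left at -2.13 and EIF4A3 farthest right at 0.85. EIF4E, EIF4E1B, EIF3IP1 and EIF5AL1, near background, are left out.

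The RNA helicase genes of the eIF4A family parted under doxorubicin. EIF4A2 read 6429.5 and 5100 in DMSO, 7872.6 and 5850.8 with entinostat, 5425.6 and 4587.3 with ATRA and 4856.6 and 4678.8 with both. It read 1704.6 and 973.8 with doxorubicin, 1514.5 and 1052.5 with entinostat and doxorubicin, 1525.4 and 955.7 with ATRA and doxorubicin, and 1146.7 and 969.5 with all 3 drugs. Every array with doxorubicin was below every array without it, and replicate 1 read above replicate 2 in all 8 groups. EIF4A2 was 4.38-fold lower on average (log2 change -2.13, SE 0.13, limma adjusted p = 3.12e-08). Against DMSO the change was -2.10 (SE 0.26, adjusted p = 0.000277) with doxorubicin alone, -2.12 with entinostat added, -2.18 with ATRA added and -2.37 with all 3 drugs. These comparisons share the DMSO arrays.

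EIF4A1, the closely related helicase that is the main eIF4A of most growing cells, ran from 7537.1 to 10092.6 (median 8756.7) without doxorubicin and from 7294 to 9015.9 (median 7826.6) with it. The ranges overlapped widely, and the difference of -0.14 had a 95% confidence interval of -0.28 to 0.01 (adjusted p = 0.135). Within an array, the log2 value of EIF4A1 minus that of EIF4A2 ran from 0.062 to 0.987 without doxorubicin (median 0.71) and from 2.28 to 2.90 with it (median 2.72). This within-array difference describes unequal change and was not tested.

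EIF4A3, a helicase of the exon junction complex and not of eIF4F, moved the other way. It read 3525.2 and 3678.2 in DMSO and ran from 2914.3 to 3678.2 over all 8 arrays without doxorubicin. With doxorubicin it ran from 5155.9 to 6875.2 (median 6113.7). It was 1.80-fold higher on average (log2 change 0.85, SE 0.07, adjusted p = 2.78e-07), and against DMSO it rose in each of the 4 groups with doxorubicin, by 0.54 to 0.87. The call against DMSO for doxorubicin alone (adjusted p = 0.0167) did not hold without either doxorubicin array (0.0638 and 0.06) or either DMSO array (0.116 and 0.0564).

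EIF4B, whose protein stimulates the helicase, fell with doxorubicin and further where entinostat was present. It read 2562.3 and 2911 in DMSO, 2266.8 and 2444.3 with entinostat, 2839.2 and 2775.9 with ATRA and 1680.7 and 2346.4 with both. With doxorubicin it read 1445.4 and 1205.7, with entinostat added 817 and 777.5, with ATRA added 1486.2 and 1192.8, and with all 3 drugs 920.4 and 712.4. The 4 lowest arrays are those with entinostat and doxorubicin together. The average doxorubicin change was -1.19 (SE 0.09, adjusted p = 1.07e-07), 2.28-fold lower, and the pair was 3.22-fold below DMSO (-1.69, SE 0.17, adjusted p = 1.1e-05). EIF4H, which acts like eIF4B, ran from 2186.4 to 3050.6 (median 2680.4) without and from 1584.8 to 2445.1 (median 2127.2) with doxorubicin. It fell by 0.35 on the log2 scale on average (limma adjusted p = 0.00362). That average joins a doxorubicin change of -0.149 without entinostat and of -0.553 with it, a difference that was not called.

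**Figure D2:**
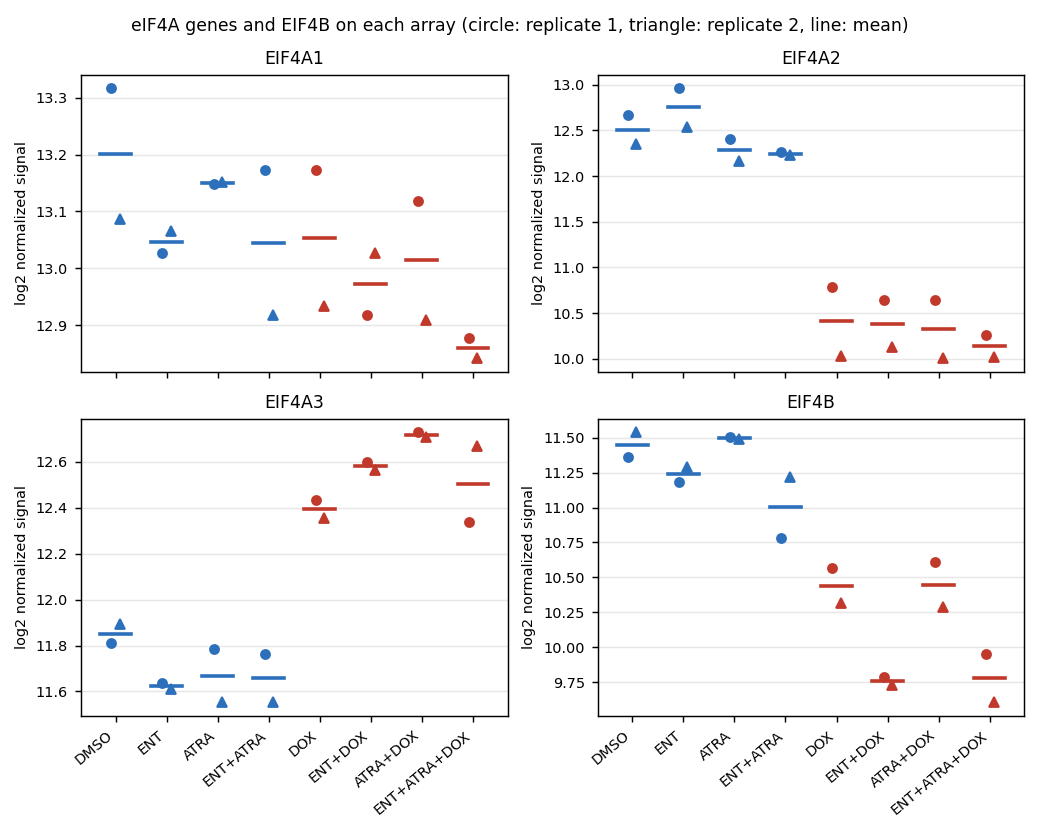
Normalized log2 signal of EIF4A1, EIF4A2, EIF4A3 and EIF4B on each array (vertical axes, each panel with its own range) in the 8 groups, without doxorubicin in blue and with it in red. Circles are replicate 1, triangles replicate 2 and lines the mean of both. EIF4A2 and EIF4B separate downwards and EIF4A3 upwards, while the EIF4A1 arrays overlap over a narrow range.

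Of the 9 genes tested in the eIF4F group, 1 rose (EIF4E3) and 4 fell (EIF4A2, EIF4E, EIF4G1 and EIF4G3) in the doxorubicin average. EIF4E3 and EIF4E were near background. Among all genes 41.1% were called, and 58.2% among those detected on all 16 arrays, so this count does not set the group apart. EIF4G1, the main scaffold, ran from 558.9 to 706.2 (median 645) without and from 340.9 to 474.5 (median 438.6) with the drug, with no overlap. Its change was -0.53 (SE 0.07, adjusted p = 3.2e-05), although its detection p-value was below 0.05 on only 6 of 16 arrays. EIF4G3, a related scaffold, ran from 494.2 to 611.3 without and from 305.5 to 477.9 with doxorubicin (-0.43, SE 0.08, adjusted p = 0.000407). EIF4G2, a relative that does not bind eIF4E, had a log2 difference of 0.04 (adjusted p = 0.649) and EIF4E2, a cap-binding homologue, of -0.18 (adjusted p = 0.139).

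Apart from EIF4E2, which was detected on all 16 arrays, the cap-binding genes were poorly measured. EIF4E, the cap-binding subunit itself, had signals of -1.7 to 19.9. It was detected on 2 arrays, 1 with entinostat and 1 with entinostat and ATRA, both without doxorubicin. It was called lower (adjusted p = 0.0454), but no fold is given so near background, and this call passed in 7 of 22 alternatives. Because EIF4E passed the detection filter only through arrays without doxorubicin, its call is counted but is no support for a fall. EIF4E3, an atypical cap-binding homologue, was not above background in DMSO (-0.9 and -0.6), and read 63.5 and 36.2 with entinostat plus doxorubicin and 56.6 and 36.9 with all 3 drugs. With the main processing it was at least 1.59-fold higher with the pair (adjusted p = 0.0051) and at least 1.54-fold higher with all 3 drugs (adjusted p = 0.0072). Over the alternatives the log2 changes ran from 0.083 to 1.296 with the pair and from 0.077 to 1.244 with all 3 drugs. These folds are therefore no lower bound across the alternatives. Those calls did not hold without replicate 1 of the treated group (0.0599 and 0.0728), and the fitted doxorubicin average of 0.39 was 0.04 with the alternative background correction and 0.67 with an offset of 16.

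The eIF4E-binding proteins keep eIF4E from eIF4G. Of 3 genes tested in this group, 2 rose with doxorubicin, where 19.8% of all genes rose. EIF4ENIF1, whose protein carries eIF4E into the nucleus and represses translation, ran from 42.6 to 81.4 (median 57.1) without and from 81.7 to 149.3 (median 142.7) with the drug. The ranges did not overlap, though they nearly touch, and the average change was 0.60 (SE 0.08, adjusted p = 2.77e-05), or 0.12 with the alternative background correction. EIF4EBP2 ran from 198.4 to 374.5 (median 228.8) and from 165.8 to 517 (median 341) and rose by 0.40 (SE 0.12, adjusted p = 0.0182), or by 0.24 with that correction. That average joins a doxorubicin change of 0.83 without entinostat and of -0.03 with it. EIF4EBP1, the best-studied mTORC1 target of the family, ran from 55.6 to 113.9 without and from 40.6 to 135.5 with doxorubicin. Its difference was -0.04, with a 95% confidence interval of -0.29 to 0.21.

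The eIF3 genes did not move together. Of 15 tested, 7 fell, 1 rose and 7 were not called with doxorubicin. Among all genes 41.1% were called, and 58.2% among those detected on all 16 arrays, so the eIF3 calls were near the background in number. EIF3A, the largest subunit and a core scaffold, read 1622.5 and 1463.3 in DMSO, 787.7 and 635.3 with doxorubicin, 614.6 and 430.1 with entinostat added, 833.1 and 675.4 with ATRA added and 430.1 and 514.2 with all 3 drugs. The 8 arrays without doxorubicin lay between 1324.9 and 1622.5, above all 8 with it. EIF3A was 2.23-fold lower on average (log2 change -1.16, SE 0.08, adjusted p = 1.05e-07).

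EIF3J, a loosely attached subunit that also helps release ribosomes, read 377.8 and 332.2 in DMSO, 225.6 and 157.1 with doxorubicin and 226.6 and 258.3 with entinostat. It read 121.3 and 104.8 with this pair of drugs and 95.7 and 83.4 with all 3. The 4 arrays with both drugs are the lowest. The average change was -0.71 for doxorubicin (SE 0.07, adjusted p = 2.55e-06) and -0.54 for entinostat (SE 0.07, adjusted p = 0.000125). With the alternative background correction these values were -0.26 and -0.20, both called.

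EIF3M ran from 3121.6 to 4069.7 (median 3729.3) without and from 1745.8 to 3008.5 (median 2330.6) with doxorubicin, and fell by 0.67 (adjusted p = 1.97e-06). EIF3E, whose mouse homologue lies at an insertion site of the mammary tumour virus, ran from 7674.7 to 10196.4 and from 4995.3 to 6482.9, and fell by 0.61 (adjusted p = 2.48e-06). Neither gene's ranges overlapped. EIF3D, which can bind the cap of some mRNAs, EIF3G and EIF3L fell by 0.37, 0.29 and 0.25 with overlapping ranges. The EIF3D average joins -0.145 without entinostat and -0.586 with it, a difference that was not called. EIF3H rose by 0.27 (adjusted p = 0.00866), from a median of 2492.3 to a median of 2911.3. EIF3B, EIF3C, EIF3CL, EIF3F, EIF3I, EIF3K and the pseudogene EIF3IP1 were not called, and EIF3B, another core scaffold, had a difference of 0.12 with an interval of -0.04 to 0.28. EIF3C and EIF3CL are near-identical copies, and so are EIF5A and EIF5AL1, so their values are uncertain where a probe could match both.

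Of the 4 genes grouped with eIF2, EIF2S2 fell. Its product is the β subunit, and it ran from 53.8 to 124.7 (median 82.5) without and from 16.4 to 76.3 (median 34.1) with doxorubicin. The change was -0.52 (SE 0.09, adjusted p = 0.000234), or -0.08 with the alternative background correction. EIF2S1, which encodes the α subunit phosphorylated under stress, had medians of 316.3 and 316.9 and a difference of -0.07 with an interval of -0.23 to 0.09. EIF2S3, the γ subunit, had a difference of 0.10 (adjusted p = 0.341) and EIF2A, an alternative initiator tRNA carrier that is no eIF2 subunit, of -0.15 (adjusted p = 0.141).

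The 5 subunit genes of eIF2B, the exchange factor of eIF2, moved in both directions. EIF2B3 (γ) ran from 373.3 to 484.9 without doxorubicin and from 158.3 to 414.6 with it, and fell by 0.63 (SE 0.12, adjusted p = 0.000641), or by 0.37 with that correction. EIF2B5 (ε, the catalytic subunit) had medians of 579.2 and 433.6 and fell by 0.28 (adjusted p = 0.0258), a call that passed in 16 of 23 alternatives. EIF2B2 (β) rose by 0.39 (adjusted p = 0.00125), from 1667.1 to 2160.4 (median 2022.7) without to 2097.6 to 3029.8 (median 2622.5) with the drug. EIF2B1 and EIF2B4 were not called.

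Of the 5 genes tested in the group of eIF1, eIF1A and eIF5, 3 fell with doxorubicin and 0 rose, where 41.1% of all genes were called. EIF1B and EIF1AD were not called. EIF1AX, the X-linked eIF1A gene, ran from 136.5 to 224.7 (median 174.1) without and from 84.8 to 128.1 (median 109.9) with the drug, without overlap, and fell by 0.46 (SE 0.07, adjusted p = 7.53e-05), or by 0.12 with the alternative background correction. It was detected on 10 of 16 arrays. EIF1 fell by 0.32 (adjusted p = 0.00933) in the average. It read 5603 and 5306.9 in DMSO and 5533.8 and 3438.6 with doxorubicin, where the replicates disagreed, and lay between 3353.2 and 3587.6 on the 4 arrays with entinostat and doxorubicin. EIF5, whose protein makes eIF2 hydrolyse its GTP, ran from 135.9 to 212.2 and from 117.5 to 199.8. It was called at -0.23 (adjusted p = 0.0484), a call that passed in 9 of 23 alternatives, and the change was -0.07 (adjusted p = 0.0703) with the alternative background correction.

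Among the later factors EIF5A was called higher and EIF5B lower in the average. EIF5A, which relieves stalled ribosomes and carries hypusine, ran from 884.5 to 1270.2 (median 1006.3) without and from 1023.9 to 1483.2 (median 1178.2) with doxorubicin. The change was 0.24 (adjusted p = 0.0356), a call that passed in 12 of 23 alternatives, or 0.36 (adjusted p = 0.0504) with that correction. Its paralogue EIF5A2 ran from 40.5 to 65 without and from 19 to 57.4 with the drug and had a difference of -0.17 (adjusted p = 0.0569). It was called without replicate 2 of entinostat plus ATRA (0.0355) or of all 3 drugs (0.0157). EIF5B, the subunit-joining GTPase, had an average change of -0.28 (adjusted p = 0.00473), which joins 0.05 without entinostat and -0.62 with it. With doxorubicin alone it was 0.00 against DMSO (adjusted p = 0.993), and its signals are given with the entinostat results. EIF6, which keeps the ribosomal subunits apart, ran from 1869.1 to 2856.6 (median 2468.1) without and from 1802.3 to 2414.8 (median 2124.1) with doxorubicin. It had a difference of -0.19 with an interval of -0.36 to -0.02 (adjusted p = 0.0695), and was called without DMSO replicate 1 (0.022) or entinostat replicate 1 (0.0245). None of the 3 Argonaute genes tested was called, and EIF2C2 (AGO2, the slicing Argonaute) had a difference of -0.13 (adjusted p = 0.242).

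Each treatment was also compared with DMSO, 2 arrays against 2. With doxorubicin alone, 1 member rose (EIF4A3) and 7 fell (EIF2B3, EIF3A, EIF3E, EIF3J, EIF3M, EIF4A2 and EIF4B). This is 15.4% of the members, with 13.6% of all genes called. That background, here and for the other treatments, includes poorly detected genes. The count was 10 without doxorubicin replicate 1, 5 without doxorubicin replicate 2 and 4 without DMSO replicate 1. EIF4A2, EIF4B and EIF3A were called in all 24 alternatives for this comparison. The EIF2B3 call passed in 11 of 24, and its change of -0.79 was -0.46 (adjusted p = 0.279) without doxorubicin replicate 1 and -0.42 (adjusted p = 0.104) with the alternative background correction.

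Entinostat alone gave 0 calls among the members by limma, with 1.58% of all genes called, and 5 members had an unadjusted p below 0.05. EIF3J had the lowest (log2 change -0.44, SE 0.15, adjusted p = 0.184). ATRA alone gave 0 calls, with 0.0234% of all genes called, and 1 member (EIF3F, 0.39) had an unadjusted p below 0.05 (adjusted p = 1). Entinostat with ATRA gave 0 calls, with 2.46% of all genes called and 5 members at an unadjusted p below 0.05, EIF3J again the lowest (-0.55, adjusted p = 0.067). Averaged over 8 arrays with and 8 without ATRA, 0 members were called, with 0.111% of all genes called, and 1 member (EIF3F, 0.17) had an unadjusted p below 0.05.

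Averaged over 8 arrays with and 8 without entinostat, 1 member rose and 13 fell. This is 26.9% of the members, with 23.2% of all genes called, 11% higher and 12.3% lower. Genes detected on all 16 arrays were not set apart as a closer background here. EIF4E3 rose by 0.46, from near background. The falls reached most complexes. In eIF3 they were EIF3A, EIF3E, EIF3F, EIF3J and EIF3M. Among the genes grouped with eIF2 and eIF2B they were EIF2S2, EIF2A (no eIF2 subunit), EIF2B4 and EIF2B5, by 0.29 to 0.31. EIF1AX and EIF4G2 fell by 0.21 and 0.19, and EIF4B by 0.51 (SE 0.09, adjusted p = 0.000638). With the alternative background correction the EIF2S2 change was -0.05, that of EIF1AX -0.06 and that of EIF4E3 0.05. The lowest value of the average was that of EIF2C2, at -0.56 (SE 0.08, adjusted p = 0.000238). EIF4A2, EIF4A3 and EIF4G1, called with doxorubicin, were not called with entinostat. The count was 9 without replicate 1 of entinostat plus ATRA. The calls of EIF3F, EIF1AX, EIF4G2, EIF3E, EIF2B5 and EIF2S2 passed in 7, 10, 12, 15, 16 and 20 of 23 alternatives, and those of the other 8 members in every alternative run.

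Among the comparisons with DMSO, the combinations with doxorubicin had the most members called. With entinostat and doxorubicin, 2 rose and 17 fell against DMSO, 36.5% of the members, with 28% of all genes called, 13.2% higher and 14.8% lower. With ATRA and doxorubicin, 3 rose and 10 fell (25%, with 15% of all genes called). With all 3 drugs, 4 rose and 18 fell (42.3%, with 27.8% of all genes called), and the members' median difference was -0.29, against -0.01 for all genes. Without DMSO replicate 1 the counts were 14, 5 and 12. Without replicate 1 of ATRA plus doxorubicin and without its replicate 2, that combination had 5 and 6 calls, and without DMSO replicate 2 it had 8. The 3-drug count was 14 without its own replicate 1 and 14 without DMSO replicate 2. EIF2A, EIF2B4 and EIF2C2 were called with the pair of entinostat and doxorubicin and not in the doxorubicin average, and these calls were not tested against each other. EIF4EBP2 was called with ATRA plus doxorubicin and with no other treatment (log2 change 1.03, SE 0.25, adjusted p = 0.0128). That call did not hold without either DMSO array (0.0739 and 0.0677) or without ATRA plus doxorubicin replicate 1 (0.0865), and the value with doxorubicin alone was 0.77 (adjusted p = 0.0538).

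**Figure D3:**
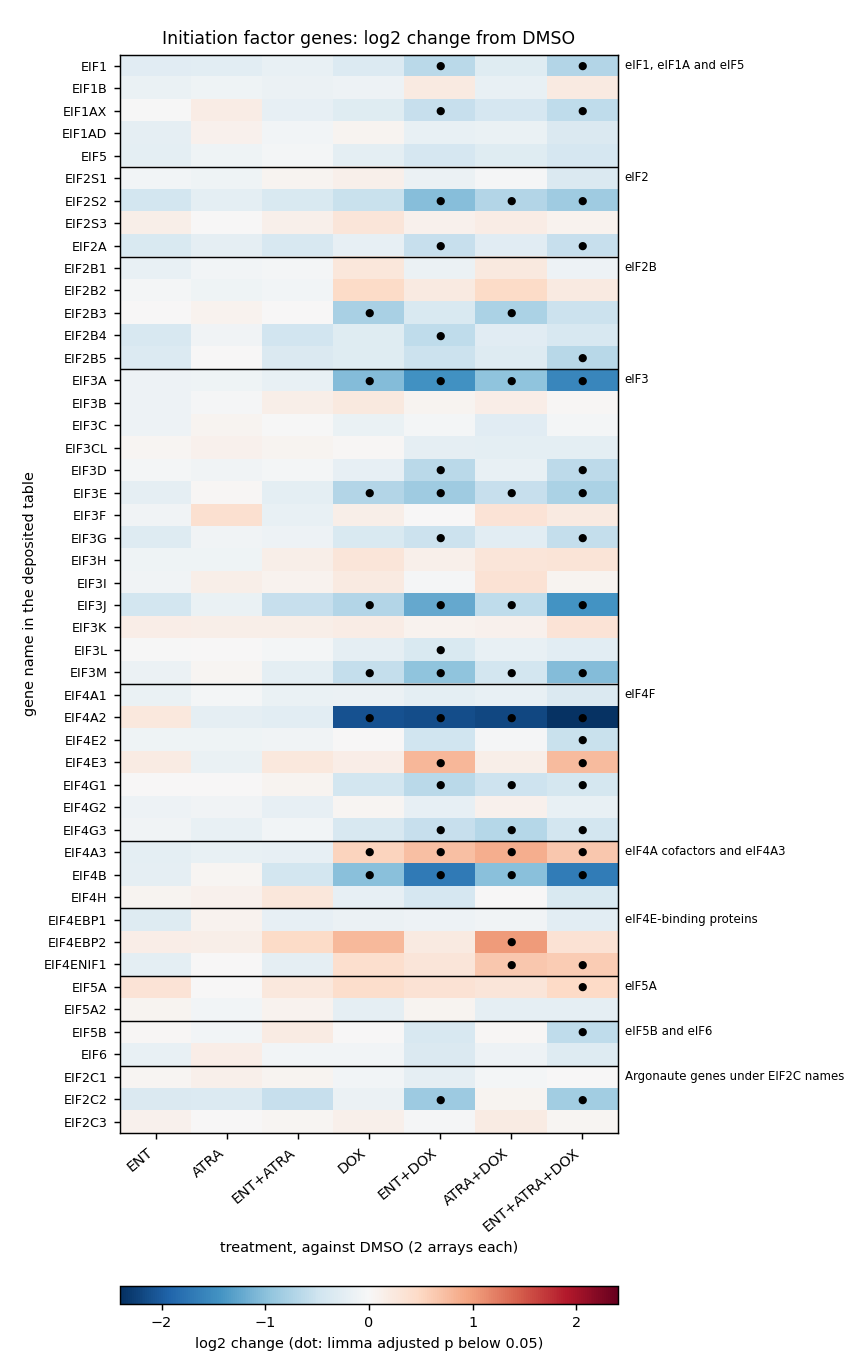
Log2 change of each initiation factor gene from DMSO (colour, blue lower and red higher) under the 7 treatments, grouped by complex, with a dot where the limma adjusted p is below 0.05. All columns share the DMSO arrays. The 3 columns without doxorubicin hold 0 dots, and EIF4A2 is the darkest row in the other 4, from -2.10 to -2.37. EIF4E, EIF4E1B, EIF3IP1 and EIF5AL1, near background, are left out, and EIF4E3 is not above background in DMSO.

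Directly against doxorubicin alone, adding entinostat lowered 3 members and raised 0 (5.77%, with 7.68% of all genes called). EIF2C2 fell by 0.74 (SE 0.16, adjusted p = 0.013), EIF4B by 0.68 (SE 0.17, adjusted p = 0.0264) and EIF3J by 0.52 (SE 0.15, adjusted p = 0.0427). The alternative background correction gave -0.64, -1.02 and -0.15, the last of them not called (adjusted p = 0.175), and the EIF3J call passed in 9 of 24 alternatives. All 3 calls depended on single arrays. Without doxorubicin replicate 1 the adjusted p was 0.116, 0.157 and 0.286, and without replicate 2 of the pair it was 0.0991, 0.0996 and 0.182. For EIF4B it was 0.0971 without replicate 1 of the pair. The count was 0 in both cases and 6 without doxorubicin replicate 2.

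The effect of entinostat differed with doxorubicin for 1 member, EIF5B, where 1.86% of all genes were called for this difference. EIF5B read 459.8 and 535.9 in DMSO, 449.3 and 568.3 with entinostat, 498 and 436.5 with ATRA and 596.9 and 560 with both. With doxorubicin it read 525 and 464.9, with ATRA and doxorubicin 502.8 and 511.1, with entinostat and doxorubicin 377.6 and 344.2, and with all 3 drugs 269.3 and 330.2. The 4 arrays with entinostat and doxorubicin together lay below the other 12, which overlapped. The entinostat change was 0.15 without doxorubicin and -0.52 with it, a difference of -0.67 (SE 0.14, adjusted p = 0.0279). That call held in 12 of 23 alternatives, with adjusted p between 0.0156 and 0.0841. It did not hold without DMSO replicate 1, doxorubicin replicate 1, entinostat replicate 2, ATRA replicate 2, entinostat plus doxorubicin replicate 2, replicate 1 of all 3 drugs, either array of entinostat plus ATRA or either of ATRA plus doxorubicin.

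EIF4EBP2 had a larger difference with a wider error (-0.86, SE 0.25, adjusted p = 0.102). Its replicates with entinostat plus doxorubicin read 348.4 and 165.8. EIF2C2 read 656.9 and 681.5 in DMSO, 708.1 and 512.7 with doxorubicin and 384.9 and 290.1 with the pair, and its difference was -0.53 (SE 0.16, adjusted p = 0.119).

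**Figure D4:**
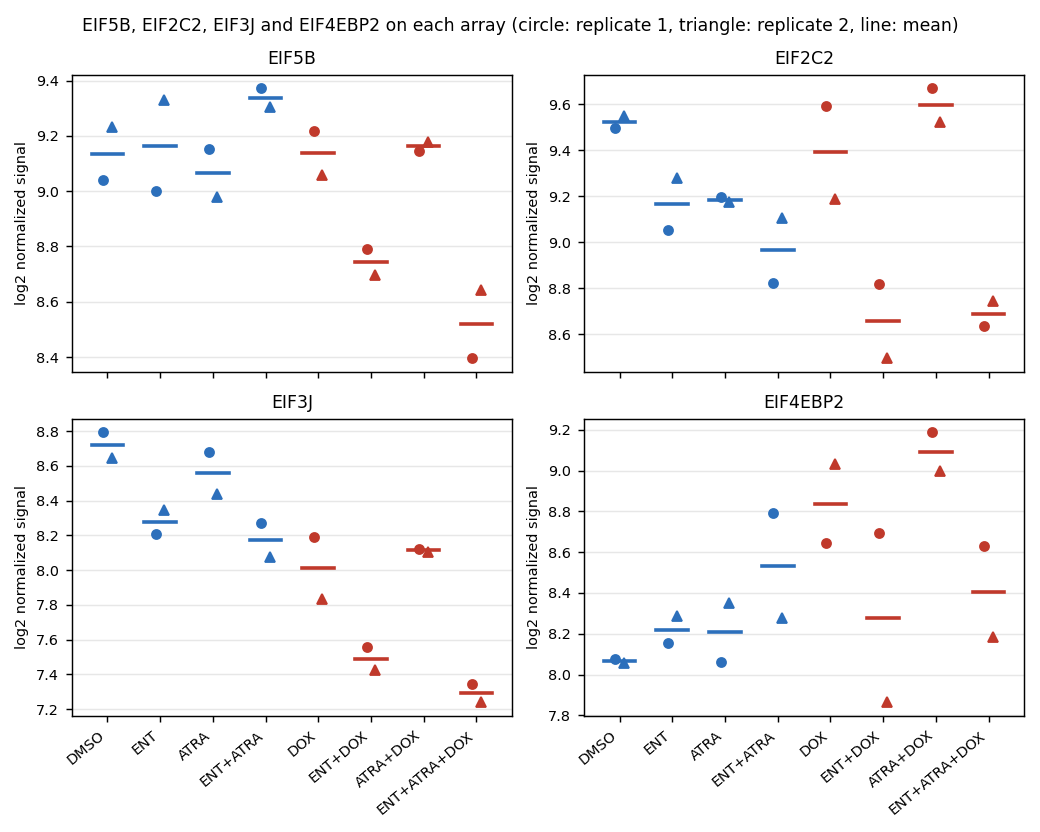
Normalized log2 signal of EIF5B, EIF2C2, EIF3J and EIF4EBP2 on each array (vertical axes, each panel with its own range) in the 8 groups, without doxorubicin in blue and with it in red. Circles are replicate 1, triangles replicate 2 and lines the mean of both. For EIF5B and EIF3J the 4 lowest arrays are those with entinostat and doxorubicin together, while the EIF4EBP2 replicates spread widely.

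Genes around the initiation machinery, listed with earlier results of these data known, also moved in both directions in the doxorubicin average, where 41.1% of all genes were called. Of 6 genes for eIF2α kinases and the regulatory subunits of its phosphatase, 2 rose and 2 fell (median -0.01). EIF2AK2, the double-stranded RNA sensor PKR, fell by 0.75 (adjusted p = 1.15e-06), and PPP1R15A, the stress-induced phosphatase subunit GADD34, rose by 0.69 (adjusted p = 7.38e-05). Of 16 initiation partners outside the EIF names, 3 rose and 6 fell (median -0.14). ABCE1, which splits ribosomes for reuse, fell by 1.29 (adjusted p = 3.15e-08) and the helicase gene DDX3X by 0.78 (adjusted p = 1.74e-06).

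Of 12 genes of mTORC1 and MNK signalling, 2 rose and 2 fell (median -0.03), with TSC1, an mTORC1 inhibitor, rising by 0.69 and the S6 kinase gene RPS6KB2 by 0.47. Of 11 elongation factors, 3 rose and 4 fell (median -0.11), with the mitochondrial factor gene GFM1 falling by 0.91 and EEF1A2 by 0.67. Of 9 termination and recycling genes, 1 rose and 5 fell (median -0.23), led by the release factor genes GSPT2 and GSPT1, which fell by 0.79 and 0.53. Of 19 cytosolic aminoacyl-tRNA synthetases, which charge tRNAs, 3 rose and 11 fell (median -0.36), with GARS falling by 0.86 and RARS by 0.74.

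**Figure D5:**
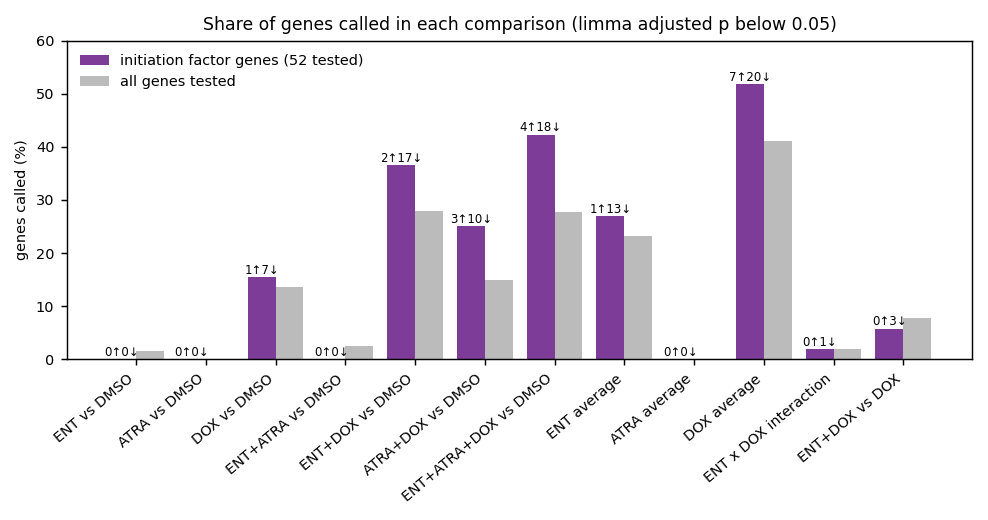
Share of genes called by limma in each of the 12 comparisons (vertical axis, percent), for the 52 initiation factor genes in purple and all 17126 genes tested in grey, with the numbers of members higher and lower above the bars. Both shares are largest for the doxorubicin average, 51.9% and 41.1%, and the members' calls are mostly lower. The grey bars include poorly detected genes.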

How the data were processed

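Total RNA of MDA-MB-231 cells was hybridised to 16 Illumina arrays, per the labels' protocols. The authors deposited background-subtracted intensities, 1 per gene name and array, with a detection p-value for each. The way probes were merged into that value is not given in these sources. A second deposited table holds log2 values with the rank order of the intensities in every array, close to log2(intensity + 89). The tool limma, with no version, is named by the submitters' processing notes.

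Normexp background correction (offset 50) of the intensities, quantile normalization and log2 transformation were done with limma 3.58.1 and R 4.3.3. Then 92 spike-in controls and 3270 unnamed sequence clusters were left out, and genes with a detection p-value below 0.05 on at least 2 arrays were kept (17126). The number of arrays limits the precision. The means of all 8 groups were fitted with lmFit and compared in 12 contrasts with eBayes (8 residual degrees of freedom), a step tested on simulated data, with Benjamini-Hochberg adjustment over all genes kept. An "at least" fold sets the bright group's mean against the dim gene's own value or the lowest value among detected genes, whichever is higher on each array.

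The members and lists were chosen with earlier results of these data known. Of the cell type markers, 1 is not reported here. Every called member could be named. Up to 3 members of each complex with the largest change with doxorubicin are given with their signals, together with a fixed set (EIF4A1, EIF4A2, EIF4E, EIF4G1, EIF4EBP1, EIF2S1, EIF2B5, EIF3A, EIF5A, EIF5A2, EIF5B, EIF6, EIF1 and EIF1AX) whatever they did. Of each surrounding list, up to 2 called genes with the largest change are named. Of the 55 names, 51 are current symbols in RefSeq's gene table and 4 are older ones.

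The alternatives were normexp from the detection p-values, an offset of 16, the authors' log2 values, no quantile step, no detection filter, detection on at least 8 arrays, the replicate number as a block, only the arrays compared, and each array left out in turn.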

Additional observations from a re-analysis of the deposited data

Results flagged for a closer look

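EIF5B stood out because the entinostat effect differed with the presence of doxorubicin: the change was 0.15 on the log2 scale without doxorubicin and -0.52 with it, a difference of -0.67 (SE 0.14, limma adjusted p = 0.0279). On the deposited scale it read 344.2 and 377.6 with entinostat plus doxorubicin and 269.3 and 330.2 with all 3 drugs, below each of the other 12 arrays (436.5 to 596.9). The call held in 12 of 23 alternatives, with limma adjusted p up to 0.0841. It was 1 of 52 members (1.92%), near the 1.86% of all genes called for this difference.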

How the results depend on the processing

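Of 27 members called in the doxorubicin average, 22 stayed called in every alternative. EIF4E, EIF5, EIF5A, EIF2B5 and EIF4EBP2 did not. Alternatives were followed for the members called in the main fit of each comparison, with the fixed set added in the doxorubicin average. Of these values, 2327 stayed on the same side of the threshold, 300 missed it and 5 newly passed. None of the called values reversed direction. New calls of other members are not in these numbers and show only in the counts below. When normexp used the detection p-values, entinostat with ATRA had 1 member called, against 0. With an offset of 16, the entinostat by doxorubicin difference had 0 members called, against 1, and entinostat plus doxorubicin against doxorubicin had 1, against 3. With only the arrays compared, doxorubicin alone had 5, against 8, and entinostat plus doxorubicin against doxorubicin had 0. The cause of these differences was not tested. With each array left out in turn, the members called ranged from 0 to 0 for entinostat, for ATRA and for the ATRA average, 4 to 10 for doxorubicin, 0 to 1 for entinostat with ATRA, 14 to 21 for entinostat with doxorubicin, 5 to 13 for ATRA with doxorubicin and 12 to 22 for all 3 drugs. They ranged from 9 to 16 for the entinostat average, 23 to 28 for the doxorubicin average, 0 to 2 for the entinostat by doxorubicin difference and 0 to 6 for entinostat plus doxorubicin against doxorubicin.

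Deviations of arrays with the same replicate number correlated between groups at 0.0194 to 0.424 (28 pairs of groups, 26 of them above 0.1, the other 2 both with doxorubicin alone). All were positive, so arrays with the same number shared part of their spread. The main fit did not use the number, and its p-values leave this sharing out. With the replicate number as a block, the count was 1 for entinostat with ATRA, 2 for the entinostat by doxorubicin difference and 5 for entinostat plus doxorubicin against doxorubicin, 12 for doxorubicin, 19 for the entinostat average and 30 for the doxorubicin average, where EIF6 was then called (adjusted p = 0.0344).

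Among all genes, the calls with normexp from the detection p-values were 129 against 270 for entinostat, 0 against 4 for ATRA, 274 against 421 for entinostat with ATRA, 2 against 19 for the ATRA average and 852 against 1315 for entinostat plus doxorubicin against doxorubicin. With an array left out they ranged from 26 to 352 for entinostat, 917 to 2524 for doxorubicin, 124 to 543 for entinostat with ATRA, 1042 to 2855 for ATRA with doxorubicin and 152 to 549 for the entinostat by doxorubicin difference. Signals near background limit EIF4E, EIF4E1B, EIF4E3, EIF3IP1 and EIF5AL1, and detection p-values above 0.05 occurred for the bright genes EIF4G1 and EIF2B4 and for EIF1AX.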
